A study of Mus musculus with 32 samples.

Results

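The most distal V genes of the mouse IGHV1 family, those numbered 67 or higher, were followed in the rearranged heavy chain loci of sorted pro-B cells. A clonotype is a CDR3 nucleotide sequence with its V, D and J genes, and it was counted here when the V gene named first in its record was IGHV1-67 or farther. The rule found 187 clonotypes among the 602 of the Vh558 amplicon and none outside it, where the whole series held 908. They carried 26516 of 73148 kept reads (36.3%) and came from 7 genes: IGHV1-72 (60 clonotypes), IGHV1-81 (36), IGHV1-74 (30), IGHV1-75 (27), IGHV1-69 (25), IGHV1-85 (8) and IGHV1-76 (1). The other 415 clonotypes of the amplicon belonged to 17 IGHV1 genes of lower number. Every member CDR3 was a whole number of codons long, so the members are in-frame joins and out-of-frame joins are not described.

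Pro-B cells (B220+ CD43+ IgM- CD25-) came from bone marrow of untreated mice 8 weeks old, labelled WT or Setd2 knockout (KO). Genomic DNA was amplified from a Vh558 family primer to JH4, and the gel band of 500 bp was sequenced on a MiSeq with 150 bp reads. The groups were 4 WT mice with 6 libraries and 5 KO mice with 7 libraries, in 3 sequencing batches. The strain, the form of the knockout allele and any Cre driver were not given in the sources used here. The amplicons measure neither Setd2 nor cell markers, so genotype and cell type rest on the labels. Poly-A selection with a kit made for RNA stands in the same library text as the genomic DNA.

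V(D)J recombination builds the heavy chain gene of a pro-B cell in order, D to JH first and V to DJ second. The IGHV1 genes lie in the part of the V cluster far from D, and the genes described here lie at its outer end, so that the locus has to fold over its greatest length to bring them to DJ. SETD2 writes H3K36me3, a histone mark found along the bodies of active genes. Cutting by the RAG enzymes leaves a hairpin at the V end, and the end, once opened, can lose bases to nucleases, keep palindromic bases from the hairpin, or gain bases added by terminal transferase.

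In the RefSeq annotation of the GRCm38.p6 assembly, used here for names and order only, 20 Ighv1 symbols are numbered 67 or higher, and 19 of them are V segments while Ighv1-68 is a pseudogene. Of the 20, 7 had a clonotype and 13 had none. Distance from D follows the number. IGHV1-75 lies between IGHV8-14 and IGHV8-15, IGHV1-81 between the genes before and after it in number, and IGHV1-85 next to IGHV1-86, the outermost gene of the list. All 7 member symbols matched that table.

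The largest member clonotype of each mouse shows what was read. Each CDR3 runs from the conserved cysteine codon of V to the tryptophan codon of J, 5′ to 3′, and capitals mark inserted bases, those the deposited positions assign to no V, D or J segment. Where no D was called, all bases between V and J are in capitals.
WT 1418 IGHV1-72 IGHD2-4 IGHJ4: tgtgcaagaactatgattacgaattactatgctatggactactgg
WT 1432 IGHV1-69 IGHD2-3 IGHJ4: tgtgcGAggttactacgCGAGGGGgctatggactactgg
WT 1485 IGHV1-72 IGHD1-1 IGHJ4: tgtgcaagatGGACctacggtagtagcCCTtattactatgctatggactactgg
WT 1536 IGHV1-72 IGHD5-1 IGHJ4: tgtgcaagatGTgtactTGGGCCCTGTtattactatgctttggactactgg
KO 1421 IGHV1-72 IGHD4-1 IGHJ4: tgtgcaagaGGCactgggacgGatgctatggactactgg
KO 1423 IGHV1-72 no D IGHJ4: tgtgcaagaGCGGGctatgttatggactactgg
KO 1464 IGHV1-69 no D IGHJ4: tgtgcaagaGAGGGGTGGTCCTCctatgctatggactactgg
KO 1534 IGHV1-72 no D IGHJ4: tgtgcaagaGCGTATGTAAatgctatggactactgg
The 5th KO mouse, 1500, had no member among 5 clonotypes. All 8 sequences ended in IGHJ4, 6 used IGHV1-72 and 2 used IGHV1-69, and no D was called in 3 of the 4 KO sequences. The WT 1418 sequence has no inserted base at all, and the KO 1464 sequence has 14.

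Libraries differed widely in how many clonotypes they gave. Kept reads per library ran from 612 to 6927 in WT and from 1000 to 9276 in KO mice, and clonotypes from 7 to 188 and from 5 to 36. Repeat libraries existed for WT mice 1418 and 1536 and KO mice 1421 and 1423. Their shares of clonotypes and reads, and the values tested by permutation, were averaged per mouse. Clonotype counts sum the libraries, so a sequence in both is counted in each. WT mice 1418 and 1536 gave 52 and 73 of the 137 WT members, and KO mouse 1423 gave 37 of the 50 KO members, so counts over pooled clonotypes rest largely on these 3 animals. Counting intervals and limits cover counting error only, since PCR reads without molecular identifiers are not independent molecules.

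The most distal genes were used by a large part of the Vh558 clonotypes of every WT mouse, and with a wider spread in KO mice. In WT mice the share was 24.6% (1418), 34.8% (1432), 57.1% (1485) and 33.6% (1536). In KO mice it was 40.7% (1421), 55.9% (1423), 18.75% (1464), 0 (1500) and 20.0% (1534). Of the KO values 3 lay below all WT values and 2 within their range. The 0 of 5 clonotypes in KO mouse 1500 allows a share of up to 43.45% (Wilson 95% interval). Means were 37.6% ± 13.8 (SD, n = 4) and 27.1% ± 21.6 (SD, n = 5), and KO minus WT was -10.5 points (95% interval -37.1 to 21.1; two-sided exact permutation p = 0.444). The smallest p that 5 against 4 mice allow is 0.00794, and the adjusted p over 8 such tests was 0.816.

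The sign of that difference was opposite in the batches. In the batch with 3 WT and 3 KO mice the means were 43.9% and 12.9%, every KO library lay below every WT library, and the difference of -30.9 points had an exact p of 0.1, the smallest that 3 against 3 allows. In the batch of repeat libraries from 2 WT and 2 KO mice the means were 27.7% and 68.0%, 40.2 points apart (exact p = 0.333, again the smallest possible). The remaining batch held 1 WT and 2 KO mice and gave 7.09 points. The KO libraries of the former batch held 32, 5 and 5 clonotypes and those of the repeat batch 7 and 31, and 2 batches share WT mouse 1536 while their KO mice differ. Whether batch, depth or mouse goes with the change of sign was not tested.

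**Figure D1:**
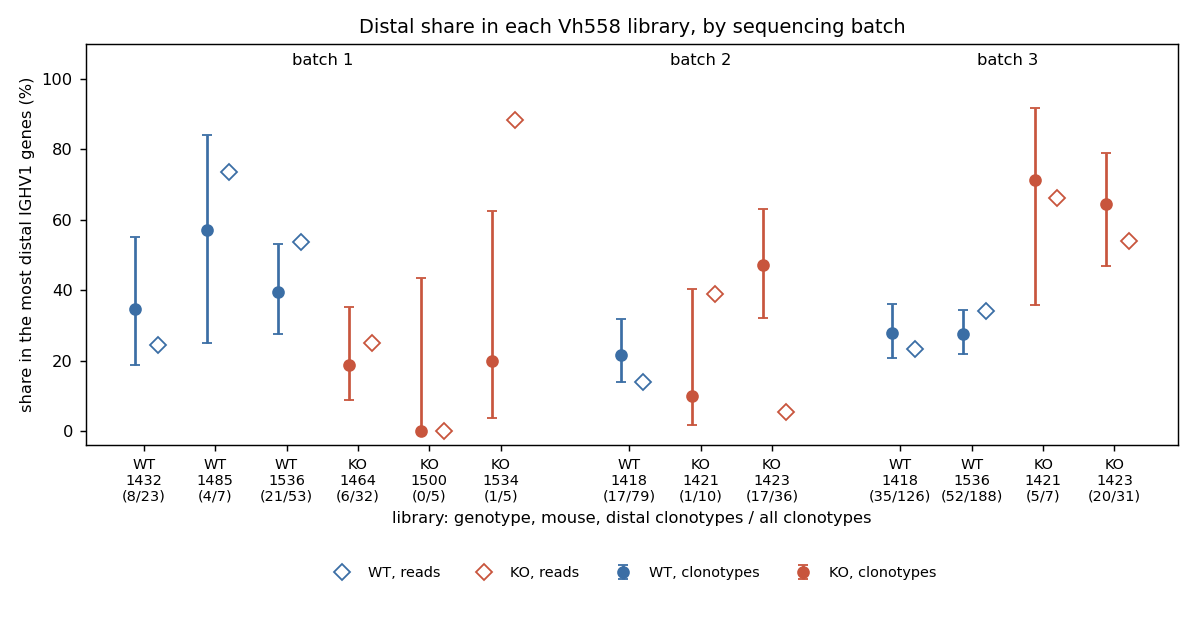
Share of each Vh558 library in the most distal IGHV1 genes (%), by sequencing batch, genotype and mouse; filled circles are shares of clonotypes with Wilson 95% intervals for counting error, and open diamonds are shares of kept reads. KO libraries sit between 0 and 20.0% of clonotypes in batch 1 and at 64.5% and 71.4% in batch 3.

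Libraries of the same mouse also differed. KO mouse 1421 had 1 member of 10 clonotypes in its first library (10%, Wilson 95% interval 1.79% to 40.4%) and 5 of 7 in its repeat (71.4%, 35.9% to 91.8%). KO mouse 1423 had 47.2% and 64.5%, WT mouse 1418 had 21.5% and 27.8%, and WT mouse 1536 had 39.6% and 27.7%. Counting intervals of the 2 libraries of a mouse overlapped in all 4 mice.

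By reads the genotypes had nearly the same mean share. Members held 18.6%, 24.4%, 73.6% and 43.8% of kept reads in WT mice 1418, 1432, 1485 and 1536. In KO mice 1421, 1423, 1464, 1500 and 1534 they held 52.5%, 29.5%, 24.9%, 0 and 88.5%. Means were 40.1% ± 24.8 (SD, n = 4) and 39.1% ± 33.3 (SD, n = 5), and the groups overlapped over almost the whole range. The difference of -0.999 points had an interval of -46.2 to 49.0 points and an exact permutation p of 0.968 (adjusted p = 0.968). It ran from -13.3 points without KO mouse 1534 to 10.2 points without WT mouse 1485, and leaving out any of 5 mice turned its sign. The batch of 3 against 3 gave -12.7 points (exact p = 0.8), that of 1 WT and 2 KO mice 8.14 points (no test) and the repeat batch 31.4 points (exact p = 0.333).

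By mean share per mouse IGHV1-72 was the most used member in both genotypes, and it was the only one present in every WT mouse. By pooled clonotypes IGHV1-81 led in KO mice, with 22 against 17 for IGHV1-72, 20 of the 22 from mouse 1423. IGHV1-72 made up 6.10%, 4.35%, 42.9% and 12.3% of the clonotypes of WT mice 1418, 1432, 1485 and 1536. In KO mice 1421, 1423, 1464, 1500 and 1534 it made up 26.4%, 16.2%, 3.12%, 0 and 20.0%. The mean ± SD was 16.4% ± 18.0 over the 4 WT mice and 13.2% ± 11.2 over the 5 KO mice, and the ranges overlapped. IGHV1-72 held 16925 of the 26516 member reads (63.8%), through a few very large clonotypes.

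IGHV1-69, the member nearest to D, came next in WT mice by mean. It made up 1.90%, 26.1%, 0 and 5.63% of clonotypes in WT mice 1418, 1432, 1485 and 1536, where 6 of the 23 clonotypes of mouse 1432 used it. In KO mice 1421, 1423 and 1464 it made up 7.14%, 1.39% and 9.38%, with none in 1500 and 1534. The means of 8.41% ± 12.0 (SD, n = 4) and 3.58% ± 4.38 (SD, n = 5) overlapped in range and differed by less than the SD of the WT mice.

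IGHV1-74 was found in 3 WT and 2 KO mice. Its shares were 4.91%, 0, 14.3% and 5.76% in WT mice 1418, 1432, 1485 and 1536, and 7.14% and 6.45% in KO mice 1421 and 1423. The other 3 KO mice had none. Means were 6.24% ± 5.94 (SD, n = 4) and 2.72% ± 3.73 (SD, n = 5), with overlapping ranges.

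IGHV1-75 was read in WT mice 1418 and 1536 alone, with 9 and 18 clonotypes (3.81% and 8.17%). WT mice 1432 and 1485 and all 5 KO mice had none. That is 27 of 476 WT clonotypes and 0 of 126 KO clonotypes. With 3 counts over the group as the limit of a 0, the pooled KO share was up to 2.38% against 5.67%. At that limit it was 2.38-fold lower, a bound that takes the pooled WT share as exact. KO mouse 1423 holds 67 of those 126 clonotypes, and without it the bound was 1.12-fold (up to 5.08% in KO mice). Leaving out any other mouse gave bounds from 1.61-fold (without WT 1536) to 2.79-fold (without WT 1418). Pooled shares do not carry the spread between mice. By mouse, a 0 allows up to 17.6% in KO 1421, 4.48% in KO 1423, 9.38% in KO 1464 and 60% in KO 1500 and KO 1534. In 4 of 5 KO mice the 0 thus allows a share as high as the 8.17% of WT mouse 1536.

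IGHV1-81 showed the opposite tilt, through 1 mouse. It made up 30.2% of the clonotypes of KO mouse 1423 (20 of 67) and 6.25% of those of KO mouse 1464 (2 of 32), with none in the other 3 KO mice. WT mice 1418 and 1536 had 5.71% and 1.21%, and WT mice 1432 and 1485 had none. The mean ± SD was 1.73% ± 2.71 over the 4 WT mice and 7.30% ± 13.1 over the 5 KO mice. Many of the IGHV1-81 sequences differ from one another at few bases, as the printed sets show.

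The other members were rare. IGHV1-85 had 5 and 2 clonotypes in WT mice 1418 and 1536 and 1 in KO mouse 1423. IGHV1-76 had a single clonotype of 77 reads, in WT mouse 1432. By mean share the order was IGHV1-72, IGHV1-69, IGHV1-74, IGHV1-75, IGHV1-81, IGHV1-76 and IGHV1-85 in WT mice, and IGHV1-72, IGHV1-81, IGHV1-69, IGHV1-74 and IGHV1-85 in KO mice. Each pair of neighbours in these orders differed by less than the larger of their SDs.

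**Figure D2:**
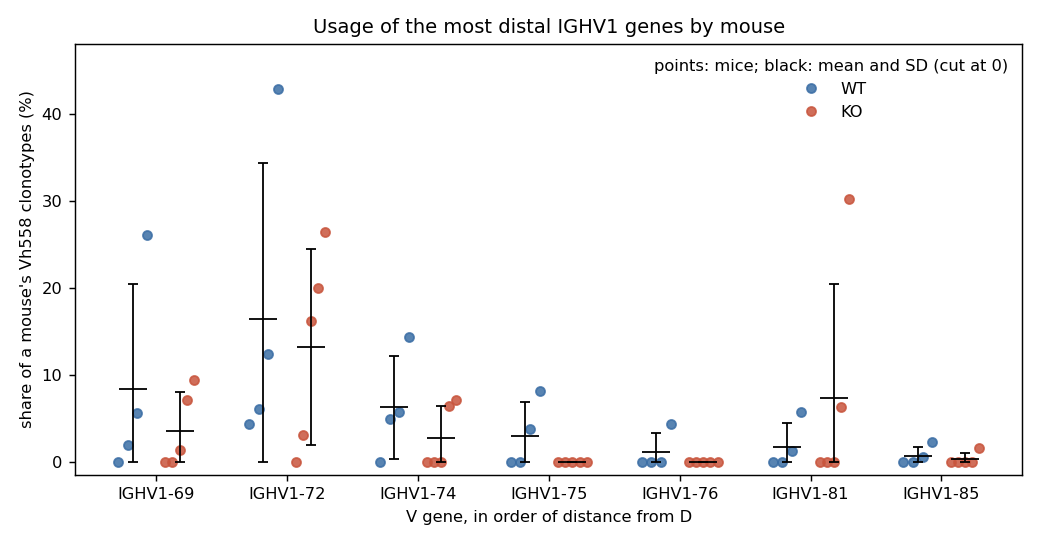
Share of a mouse's Vh558 clonotypes (%) in each member gene; points are mice (4 WT, 5 KO), black lines the mean and SD (cut at 0). IGHV1-72 reaches 42.9% in a WT mouse, IGHV1-75 is at 0 in all 5 KO mice, and the KO point of IGHV1-81 at 30.2% is mouse 1423.

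V gene usage was tested across all 16 V genes with at least 10 clonotypes, of which 5 were members. Clonotypes of repeat libraries were summed per mouse, so a sequence in both libraries counted in each. With edgeR's quasi-likelihood test and Benjamini-Hochberg adjustment, 0 of 16 genes passed an adjusted p of 0.05 (0% called), and 2 of 16 (12.5%) had an unadjusted p under 0.05, both of them members. DESeq2 called 0 genes, with 0 at an unadjusted p under 0.05. The 2 were IGHV1-75, lower in KO mice (adjusted p = 0.202 by edgeR), and IGHV1-81, higher (log2 difference 2.03 ± 0.998 (SE), adjusted p = 0.355 by edgeR). Without KO mouse 1423 the log2 difference of IGHV1-81 was 0.16. With only clonotypes of at least 10 reads it was 3.14 (adjusted p = 0.0317 by edgeR, 13 genes tested, and IGHV1-75 had too few clonotypes left to be tested). IGHV1-69, IGHV1-72 and IGHV1-74 had log2 differences of -0.70 ± 1.13, 0.15 ± 1.07 and -0.49 ± 1.08 (SE), and the sign of the former 2 turned under other settings, IGHV1-72 with TMM scaling (-0.24) and DESeq2 (-0.06) and IGHV1-69 with reads as the unit (0.13). Of the 5 members 3 were lower and 2 higher in KO mice, against 7 and 4 of the other 11 genes. The median log2 difference was -0.49 over the members, also with IGHV1-75 at its bound of -1.25, and -0.21 over all 16 genes tested.

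The V ends of the members were mostly complete. Of 187 joins, 135 kept the whole V end and 52 (27.8%) had lost bases, by 1 base in 29 joins and by at most 6. The joins that kept it include 40 (21.4%) with bases past the V end, 28 of them with 1 base. In all 40 these bases were the reverse complement of the last V bases, and such bases are called palindromic here. Whether they were kept from the hairpin or added by terminal transferase was not tested. Among the other IGHV1 genes of the amplicon 107 of 415 joins (25.8%) were trimmed and 23.6% had palindromic bases.

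IGHV1-74 differed from the other members at its V end, both in its germline letters and in how often it was trimmed. The V part of the CDR3 in joins with no base lost or mirrored was, for IGHV1-74 and for IGHV1-72 as an example of the rest, with the last 3 bases taken up to the cut:
IGHV1-74: tgtgcaata
IGHV1-72: tgtgcaaga
The first was the V end in 6 of 8 such IGHV1-74 joins and the second in 29 of 34 such IGHV1-72 joins. Of 21 V genes of the amplicon with an untrimmed join, 20 ended mostly in aga and 1, IGHV1-74, in ata.

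Of the 30 IGHV1-74 joins 20 (66.7%) were trimmed, 16 of them by a single base. Among the 16 genes with at least 10 clonotypes this was the highest share. The next was IGHV1-22 with 36.0%, and the lowest IGHV1-52 with 4.35%. By mouse, IGHV1-74 was trimmed in 3 of 10 joins in WT 1418, 1 of 1 in WT 1485, 11 of 14 in WT 1536, 1 of 1 in KO 1421 and 4 of 4 in KO 1423. All other joins of these mice were trimmed in 25.6%, 0, 23.3%, 37.5% and 30.2%. IGHV1-74 lay above them in all 5 mice, narrowly in WT 1418. With sequences linked by up to 2 mismatches counted once, 18 of 26 (69.2%) were trimmed. This gene was singled out after its values were seen, so no test is given. Without it 32 of the remaining 157 members (20.4%) were trimmed.

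The other members fell between 11.7% and 28% where they had 10 joins or more. IGHV1-72 was trimmed in 7 of 60 joins (11.7%) and had palindromic bases in 19, and IGHV1-75 was trimmed in 4 of 27 (14.8%) and had them in 10. IGHV1-69 was trimmed in 7 of 25 (28%), of which 4 had lost 4 bases. IGHV1-81 had palindromic bases in a single join. It was trimmed in 10 of 36 (27.8%), all by 2 bases, and 9 of these were from KO mouse 1423. These 9 all had 36 nt and included sequences that differ at few bases and sequences read in both libraries. Which of them are separate joins was not tested.

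**Figure D3:**
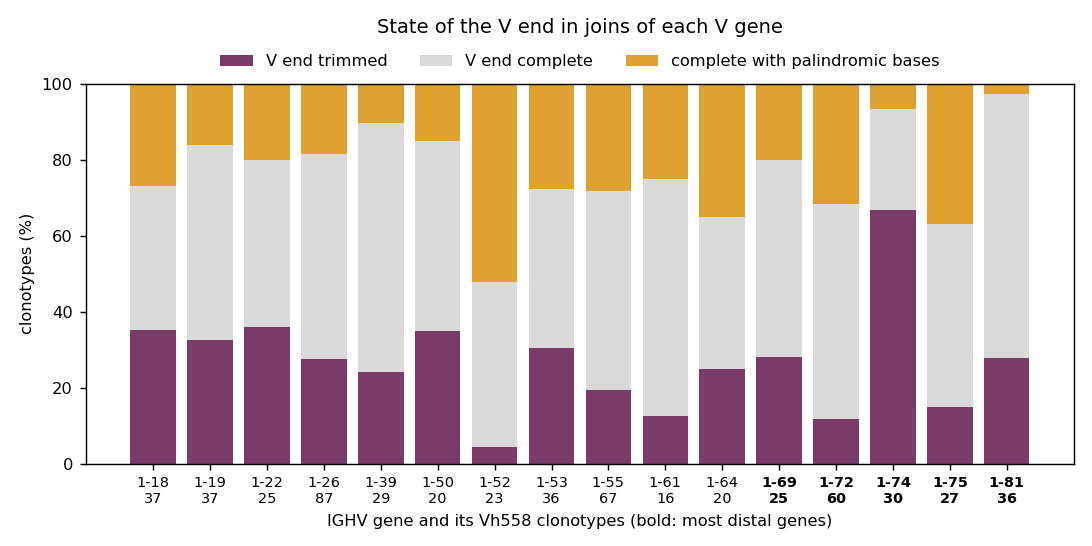
State of the V end (% of clonotypes) in the 16 V genes with at least 10 Vh558 clonotypes, in order of distance from D, with clonotype numbers below; stacked colours are trimmed, complete, and complete with palindromic bases. IGHV1-74 is trimmed in 66.7% of joins, against 36.0% or less in every other gene shown.

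Averaged per mouse, V end trimming overlapped between the genotypes. Bases lost per member join came to 0.453, 1.12, 0.250 and 0.559 nt in WT mice 1418, 1432, 1485 and 1536, and 0.2, 0.694, 0 and 0 nt in KO mice 1421, 1423, 1464 and 1534. The difference of -0.373 nt (95% interval -1.12 to 0.444) had an exact permutation p of 0.171 (adjusted p = 0.816), and the smallest p that 4 against 4 allows is 0.0286. By batch it was -0.696 nt (3 WT and 2 KO mice, exact p = 0.2), -0.412 nt (1 and 2, no test) and 0.298 nt (2 and 2, exact p = 0.667). Weighted by reads the difference was -0.767 nt.

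Inserted bases per member had a mean of 7.50 ± 0.694 nt over WT mice and of 8.87 ± 4.93 nt over KO mice (SD, n = 4 each). WT mice 1418, 1432, 1485 and 1536 had 6.88, 8.38, 7 and 7.73 nt. KO mice 1421 and 1423 lay below all of them with 4.30 and 5.85 nt, and KO mice 1464 and 1534 above with 15.3 and 10 nt. The difference of 1.38 nt (95% interval -4.08 to 8.45) had an exact permutation p of 0.714 (adjusted p = 0.816) and turned to -0.779 nt without KO mouse 1464. By batch it was 4.72 nt (3 WT and 2 KO mice, exact p = 0.1), -0.912 nt (1 and 2, no test) and -2.28 nt (2 and 2, exact p = 0.333).

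A D segment was called in 159 of the 187 members. Its families were IGHD2 (74 joins), IGHD1 (35), IGHD5 (20), IGHD3 (19) and IGHD4 (11), and the most used single genes were IGHD1-1 with 35 and IGHD2-4 with 27. IGHD2 made up 46.5% and IGHD1 22.0% of D calls, against 55.9% and 25.3% in the other IGHV1 genes. Partners varied among the members. In IGHV1-75 IGHD1 had 10 of 22 D calls and IGHD2 had 8. These were 3 and 1 in WT 1418, and 7 of each in WT 1536. IGHD2 led in IGHV1-69 with 14 of 21 and in IGHV1-72 with 24 of 51. In IGHV1-81 11 of its 12 IGHD2 joins came from WT mouse 1418, and all 6 of its IGHD3 and all 6 of its IGHD5 joins from KO mouse 1423. These include near-identical sequences and sequences read in both libraries of the mouse, so they need not be separate joins.

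The IGHD1 share of D calls ran from 0 to 66.7% in WT and from 0 to 50% in KO mice. Means were 27.5% ± 28.6 (SD, n = 4) and 20.8% ± 26.0 (SD, n = 3, since KO mouse 1534 had no D call and 1500 no member). KO minus WT was -6.66 points (95% interval -98.1 to 57.5), with an exact permutation p of 0.714 (adjusted p = 0.816). Its sign turned with reads as weights (6.68 points) and without WT mouse 1485 (6.40 points) or KO mouse 1421 (3.76 points). By batch it was 19.0 points (3 WT and 1 KO mice, no test), -7.14 points (1 WT and 2 KO, no test) and -14.1 points (2 and 2, exact p = 0.667).

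Joins without a called D were more frequent among KO members by count. They were 15 of 50 in KO mice and 13 of 137 in WT mice, while among the other IGHV1 joins they were 1 of 76 and 38 of 339. By mouse the KO members without D were 1 of 6 (1421), 11 of 37 (1423), 2 of 6 (1464) and 1 of 1 (1534), and the other joins of these 4 mice had none. In WT mice 1418, 1432, 1485 and 1536 they were 6 of 52, 0 of 8, 1 of 4 and 6 of 73. With sequences linked by up to 2 mismatches counted once the 11 of 37 in KO mouse 1423 became 4 of 20. This pattern was noticed in the data and no test is given. A D remnant too short to be recognized also counts as no D.

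IGHJ4, the J gene at the primer, took 165 of 187 member joins (88.2%), with 13 to IGHJ3, 7 to IGHJ2 and 2 to IGHJ1. Products of the upstream JH genes are longer and the band was cut at 500 bp, so these are shares of the amplified band. IGHV1-75 and IGHV1-81 were joined to IGHJ4 in all of their 27 and 36 clonotypes, and IGHV1-72 in 47 of 60. Of the 9 IGHV1-72 joins to IGHJ3, 6 were from KO mouse 1423. Per mouse, the IGHJ4 share of members was 85.3%, 75%, 50% and 99.0% in WT mice 1418, 1432, 1485 and 1536, and 90.0%, 71.9%, 83.3% and 100% in KO mice 1421, 1423, 1464 and 1534. The means of 77.3% ± 20.7 and 86.3% ± 11.8 (SD, n = 4 each) were 8.98 points apart (95% interval -27.1 to 50; exact permutation p = 0.543) (adjusted p = 0.816). Its sign turned with reads as weights (-3.43 points), with at least 10 reads per clonotype (-6.49 points) and without WT mouse 1485 (-0.133 points). By batch it was 16.7 points (3 WT and 2 KO mice, exact p = 0.5), 8.82 points (1 and 2, no test) and -16.5 points (2 and 2, exact p = 0.333).

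CDR3 sequences of the members, all in frame, had a median length of 42.0 nt, from 21 to 69 nt. Over pooled clonotypes it was 45.0 nt in WT and 36.0 nt in KO mice. WT mice were close together, with means of 44.4, 46.1, 44.2 and 44.9 nt in mice 1418, 1432, 1485 and 1536. KO mice 1421, 1423 and 1534 lay below all of them with 39.6, 37.4 and 36.0 nt, the last from a single clonotype, and KO mouse 1464 lay above with 53.5 nt. The means of 44.9 ± 0.860 and 41.6 ± 8.05 nt (SD, n = 4 each) gave a difference of -3.27 nt (95% interval -10.1 to 9.25) with an exact permutation p of 0.543 (adjusted p = 0.816). Without KO mouse 1464 it was -7.22 nt with an exact p of 0.0286, the smallest that 3 against 4 allows, and an adjusted p of 0.229. Over all alternatives of this difference the adjusted p ran from that value to 1. Weighted by reads it was -6.56 nt (exact permutation p = 0.0571, adjusted p = 0.457). By batch it was -0.470 nt (3 WT and 2 KO mice, exact p = 0.8), -3.27 nt (1 and 2, no test) and -7.21 nt (2 and 2, exact p = 0.333).

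The genes differed in which lengths they carried. Pooled over clonotypes, IGHV1-72 averaged 44.2 ± 7.35 nt in 43 WT and 36.7 ± 5.03 nt in 17 KO joins. By mouse its means were 44.3, 48, 42 and 44.3 nt in WT and 39.0, 35.2, 45.0 and 36.0 nt in KO mice 1421, 1423, 1464 and 1534, where WT 1432, KO 1464 and KO 1534 had 1 join each. The 4 clonotypes of KO 1421 were 1 sequence read in both libraries and near-identical sequences. They became 2 groups once sequences of 1 library linked by up to 2 mismatches were counted once. IGHV1-69 leaned the other way, with 42.3 ± 8.08 nt in 20 WT and 49.8 ± 7.82 nt in 5 KO joins. IGHV1-75 averaged 38.0 nt in WT mouse 1418 and 46.0 nt in WT mouse 1536. These SDs are over clonotypes, which share their mouse, and no test was made on them.

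IGHV1-81 joins gathered at few lengths. Its 20 clonotypes in KO mouse 1423 averaged 36.5 nt, the 12 in WT mouse 1418 averaged 53.2 nt, the 2 in WT mouse 1536 both had 54.0 nt and the 2 in KO mouse 1464 both had 69 nt. The 2 WT mice thus lay close together, and the 2 KO mice on either side of them.

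**Figure D4:**
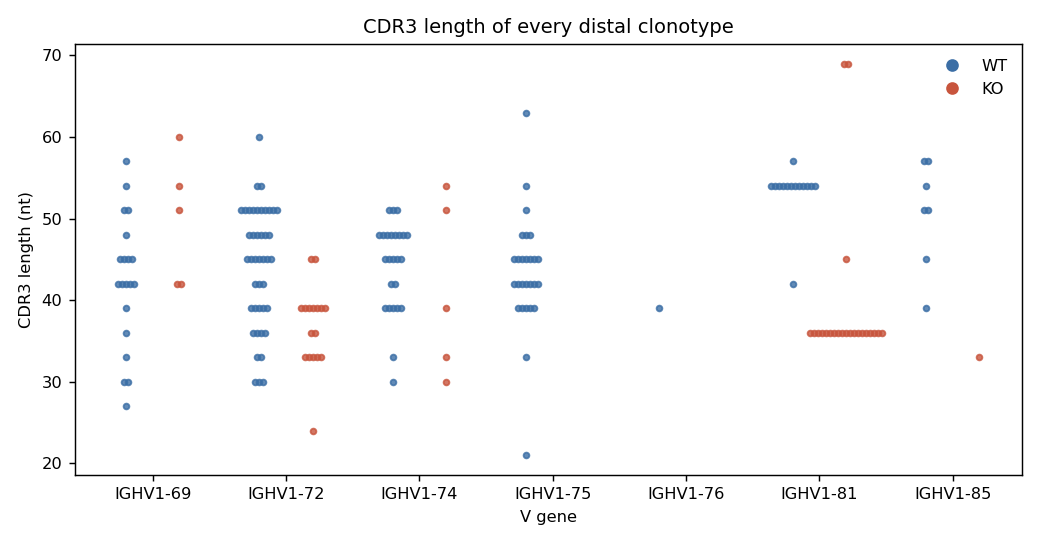
CDR3 length (nt) of every member clonotype by V gene; each point is a clonotype of 1 library, blue for WT and red for KO. IGHV1-81 has a row of KO points at 36 nt and a row of WT points at 54 nt, where IGHV1-72 spreads from 24 to 60 nt.

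The IGHV1-81 clonotypes were largely sets of near-identical sequences within a library, which bears on every count of this gene. Sequences of 1 library with the same V, J and length that were linked by up to 2 mismatches were counted once as an alternative chosen after the data were seen. The 187 members became 139 groups, and the 36 of IGHV1-81 became 13, while IGHV1-72 went from 60 to 46, IGHV1-74 from 30 to 26, IGHV1-69 from 25 to 20 and IGHV1-75 from 27 to 25. The 415 other clonotypes became 335. The largest set of WT mouse 1418 and of KO mouse 1423 is printed with its reads, and capitals mark bases that differ from the entry with most reads. In the repeat library of WT mouse 1418 it was:
31 reads: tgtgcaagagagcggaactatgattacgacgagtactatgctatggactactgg
12 reads: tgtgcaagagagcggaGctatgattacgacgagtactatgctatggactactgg
6 reads: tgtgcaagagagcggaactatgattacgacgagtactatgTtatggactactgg
5 reads: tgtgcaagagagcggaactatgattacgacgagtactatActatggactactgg
4 reads: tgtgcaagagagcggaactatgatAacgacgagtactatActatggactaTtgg
3 reads: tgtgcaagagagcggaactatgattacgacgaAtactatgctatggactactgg
In the repeat library of KO mouse 1423 it was:
143 reads: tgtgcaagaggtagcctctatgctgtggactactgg
138 reads: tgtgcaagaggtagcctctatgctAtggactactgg
88 reads: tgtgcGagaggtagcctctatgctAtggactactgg
14 reads: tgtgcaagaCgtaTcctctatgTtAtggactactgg
7 reads: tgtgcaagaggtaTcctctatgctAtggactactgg
In the WT set a single sequence led and the rest had fewer reads, while in the KO set 3 sequences had 88 to 143 reads. Of the WT set 2 of 6 sequences, those with most reads, were also in the other library of the mouse, and of the KO set 4 of 5. Which of these are separate joins was not tested. A similar case was IGHV1-72 in KO mouse 1421, where 2865 and 1144 reads fell on 2 sequences at 1 mismatch.

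In the deposited series table no member sequence was in more than 1 mouse. The 187 clonotypes had 171 distinct sequences, of which 16 were in both libraries of their mouse. In the clone lists of single libraries 2 member sequences were also in the list of another mouse, at 1 read. Of the 56 members in first libraries and 112 in repeats of the 4 mice with 2 libraries, these 16 were 3 in WT 1418, 4 in WT 1536, 1 in KO 1421 and 8 in KO 1423, 7 of them IGHV1-81. Some are printed with inserted bases in capitals, to show joins read in both libraries of a mouse.
KO 1423 IGHV1-72 IGHD2-4 IGHJ3, 79 and 16 reads: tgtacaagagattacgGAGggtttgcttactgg
WT 1536 IGHV1-72 no D IGHJ4, 40 and 9 reads: tgtgcaagGGGGGatgctatggactactgg
WT 1418 IGHV1-74 IGHD3-2 IGHJ4, 18 and 115 reads: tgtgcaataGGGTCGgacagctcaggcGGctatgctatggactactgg
WT 1536 IGHV1-75 IGHD1-1 IGHJ4, 8 and 3 reads: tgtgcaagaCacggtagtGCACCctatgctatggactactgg
KO 1423 IGHV1-81 IGHD5-7 IGHJ4, 145 and 89 reads: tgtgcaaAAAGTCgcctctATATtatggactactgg
The recurring members held 100% and 49.9% of member reads in the libraries of KO mouse 1421, and 85.2% and 8.35% in those of KO mouse 1423. In WT mouse 1418 they held 3.01% and 11%, and in WT mouse 1536 32.9% and 11.6%. The overlap of the repeat libraries was thus large by reads in single libraries of KO mice and small in WT mouse 1418.

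Member clonotypes ranged from 2 to 4571 reads, with a median of 11, and 91 of 187 had under 10 reads. The 5 largest held 52.5% of all member reads. As share of the kept reads of its library, the largest member had 4.87% in WT 1418 (337 reads), 16.7% in WT 1432 (1069 reads), 70.5% in WT 1485 (4571 reads) and 9.31% in WT 1536 (57 reads). In KO mice it had 38.9% in 1421 (2082 reads), 24.8% in 1423 (2300 reads), 24.0% in 1464 (2095 reads) and 88.5% in 1534 (885 reads). Over all clone reads of the library, kept or not, these shares were 4.55%, 16.5%, 63.4% and 7.98% in WT mice. In KO mice they were 31.7%, 21.2%, 16.1% and 56.3%, in the same order. Members over 10% of a library were present in 2 of 4 WT mice, 1432 and 1485, and in all 4 KO mice with members. WT mice 1418 and 1536, without one, had the most clonotypes of all mice (205 and 241). The other IGHV1 genes were not counted this way. KO mouse 1421 had 4 of them with 3 distinct sequences, since the one with 2082 reads in the first library and 2865 in the repeat is the same, and the one with 1144 reads is 1 mismatch from it.

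Averaged over the libraries of a mouse, the largest member held 24.5% ± 31.1 of kept reads in the 4 WT mice and 32.3% ± 34.1 in the 5 KO mice (SD), counting 0 for KO mouse 1500. KO minus WT was 7.83 points (95% interval -46.5 to 61.8), with an exact permutation p of 0.667 (adjusted p = 0.816) and was -6.21 points without KO mouse 1534. The batch of 3 against 3 gave 5.36 points (exact p = 0.8), that of 1 WT and 2 KO mice 15.4 points (no test) and the repeat batch 25.1 points (exact p = 0.333). Among the genes, IGHV1-75 and IGHV1-81 had no clonotype above 42 and 145 reads, while the largest of IGHV1-69, IGHV1-72 and IGHV1-74 had 2095, 4571 and 1625 reads.

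**Figure D5:**
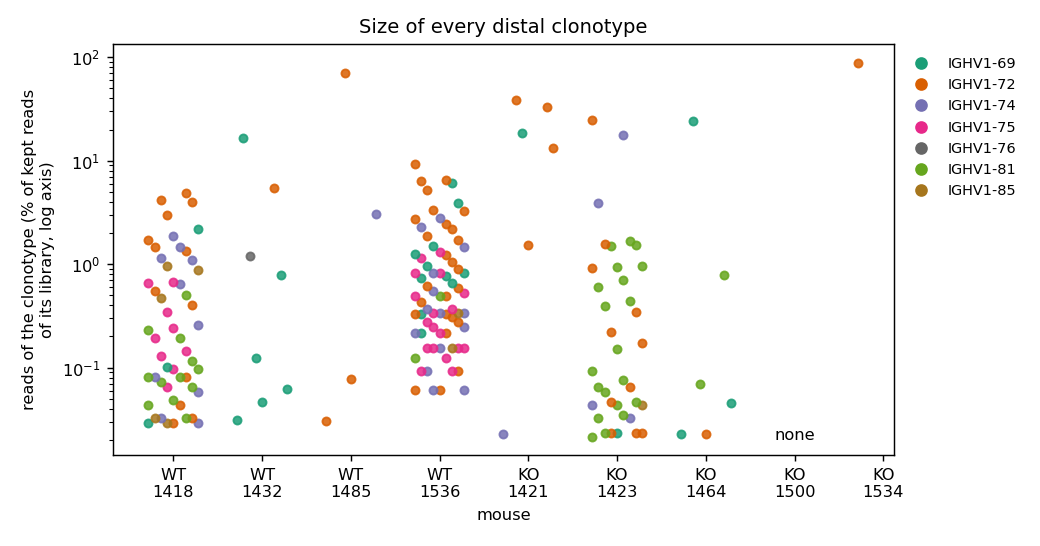
Reads of every member clonotype as % of the kept reads of its library (log axis), by mouse, coloured by V gene. Most points of WT mice 1418 and 1536 and of KO mouse 1423 lie under 1%, KO mouse 1534 has a single point at 88.5%, and KO mouse 1500 has none.

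Set against the other IGHV1 genes of the same mouse, the members passed the test in none of 6 features. Over 8 mice with both kinds of clonotype, CDR3 length was 43.3 ± 5.58 nt in members and 44.3 ± 2.70 nt in the others (SD, n = 8), a difference of -1.02 nt (95% interval -4.11 to 2.32), lower in 6 of 8 mice, with an exact sign-flip permutation p of 0.453. V end trimming differed by -0.154 nt (interval -0.642 to 0.192, exact p = 0.562). Inserted bases differed by 1.24 nt (interval -1.13 to 3.87, exact p = 0.289). IGHJ4 differed by 8.12 points (interval -9.96 to 34.1, exact p = 0.609), IGHD1 by -7.45 points (interval -28.8 to 11.5, 7 mice, exact p = 0.5) and clone size by 0.46 on the log2 scale of reads (interval -1.42 to 2.87, exact p = 0.711). The adjusted p was 0.711 in all 6. The IGHD1 difference turned to 6.26 points with at least 10 reads per clonotype and to 10.6 points with reads as weights. In the batches of 5, 3 and 4 mice the differences were 0.390, -3.60 and -2.87 nt for length, 0.0679, -0.241 and -0.550 nt for trimming, and 2.26, -1.18 and 0.268 nt for inserted bases. For IGHJ4 they were 15.0, 1.67 and -5.58 points, and for clone size 0.75, 0.90 and -0.62 on the log2 scale, so all 5 of these features had both signs. IGHD1 was negative in each, at -1.61 (4 mice), -3.43 and -25.8 points.

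The gap in inserted bases between members and the other genes had opposite mean signs in the genotypes. Members minus others gave -2.40, -1.16, 1.33 and -0.184 nt in WT mice 1418, 1432, 1485 and 1536. In KO mice 1421, 1423, 1464 and 1534 it gave 1.27, 0.168, 6.41 and 4.5 nt. The mean gap was -0.602 nt in WT and 3.09 nt in KO mice, a difference of 3.69 nt with an exact permutation p of 0.0857 (adjusted p = 0.514 over 6 such tests), so it did not pass. In these 4 KO mice every join without a D was a member, and such joins count all bases between V and J as inserted. In KO mouse 1464 the 2 IGHV1-81 joins, both with a D, averaged 20 inserted bases. Its largest member, without a D, had 14. Whether joins without a D go with the gap was not tested.

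Outside the members, the V genes whose share of clonotypes over the 9 mice was most like the summed share of the members were IGHV1-53 (Spearman rho 0.814, Pearson r 0.718, 36 clonotypes in 6 mice), IGHV1-50 (rho 0.696, r 0.624, 20 clonotypes in 5 mice) and IGHV1-61 (rho 0.365, r 0.514, 16 clonotypes in 4 mice). The least alike was IGHV1-55 with a rho of -0.610 (67 clonotypes in 6 mice). These are descriptions over 11 genes. The shares of a mouse add up to a whole and rest on as few as 5 clonotypes, so they are not independent of each other.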

How the data were processed

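The members and gene lists were chosen with earlier results of these data known. MiXCR stands in the series title, and the deposited table has its columns; its version, settings and build were not given in the sources used here. The table holds 930 entries of at least 2 reads. Per the file headers the clone values are read counts, whole and not normalized as deposited, and the deposited clone fraction is over all clone reads of a library. Other deposited columns are positions in nucleotides within the CDR3, from which trimming, palindromic and inserted bases were taken, and the reads sequenced. Not used here were 2 libraries that matched no single sample, from KO mice 1534 and 1500.

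The mouse was the replicate. Repeat libraries were averaged for the permutation tests, while their clonotypes were summed for the test of V gene usage. KO minus WT values (8) were tested by two-sided exact permutation over mice, and members minus other IGHV1 genes (6) by sign flips over mice, with 95% intervals from inverting each test and Benjamini-Hochberg adjustment within each family. Usage of V genes was compared by edgeR 4.0.16 (limma 3.58.1, R 4.3.3) on clonotypes per gene and mouse, with total clonotypes as offset and at least 10 clonotypes per gene. Simulated at the spread of the real counts (1936 genes), 12% of log2 increases of 2 and 87% of log2 increases of 4 were called. The simulation adjusted over many more genes than the 16 tested, so these shares do not give how often the real test would call such changes. How often a decrease would be called was not tested. The alternative count test was DESeq2 1.42.0. Permutations ran in numpy 2.4.6 under Python 3.11.15, and Wilson intervals and Spearman rho in scipy 1.17.1. Tables were made in pandas 2.3.3 and plots in matplotlib 3.10.9.

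Genes named: every IGHV1 gene numbered 67 or higher with a clonotype, the 5 with most clonotypes mouse by mouse, and the 3 others most alike by Spearman rho. Sequences shown are the largest member of each mouse, near-identical sets, and members in both libraries of a mouse as room allowed. Of the members, 184 had a single V hit. In the clone lists of the single libraries 141 of 187 members, with 99.4% of their reads, were found in their own library's list. The lists gave fewer reads for the largest member of each mouse, such as 2087 against 4571 in WT 1485. RefSeq gave gene names and order; the members had no entry in its promoter table used here.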

Additional observations from a re-analysis of the deposited data

Results flagged for a closer look

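Among 35 groups of 4 or 5 mice examined for a value far from the others, 1 stood out, where chance gives about 1 in 20. The IGHV1-81 share of clonotypes was 30.2% in KO mouse 1423, against 0 to 6.25% in the other 4 KO mice. Its 20 clonotypes there became 6 groups once sequences of 1 library linked by up to 2 mismatches were counted once. Groups were formed within each library, so a set read in both libraries of this mouse counts in each.

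A list that entered no comparison also held a member. KO mouse 1534 has 2 deposited clone lists. Its largest member, an IGHV1-72 clonotype, had 167 reads (46.9%) in one and 3232 reads (55.2%) in the other. The list with 167 reads is of the library compared above, where this clonotype had 885 reads (88.5% of kept reads).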

How the results depend on the processing

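Over 14 tests and 244 alternatives, 224 kept their direction and side of the threshold, 20 turned sign and 0 passed the threshold. Alternatives counting near-identical sequences once (up to 1 or 2 mismatches) or keeping single V hits were chosen after seeing the data. No paired analysis was possible because mouse numbers name different animals in the 2 genotypes. Few clonotypes limit the shares, with 7 or fewer in 4 of 13 libraries, which had 1000 to 8691 kept reads.

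With at least 10 reads per clonotype, IGHJ4 in KO minus WT was -6.49 points, IGHD1 in members minus others 6.26 points, and 1 V gene was called (IGHV1-81, log2 3.14). Weighted by reads, IGHJ4 was -3.43 and IGHD1 6.68 points (KO minus WT), and IGHD1 10.6 points (members minus others). With repeat libraries merged the share of reads differed by 1.56 points. With at least 3 members per mouse IGHJ4 in members minus others was -1.44 points. IGHV1-72 was -0.062 with DESeq2 and -0.24 with TMM (log2), and IGHV1-69 was 0.13 with reads, and 0.20 and 0.036 at 1 and 2 mismatches. The cause of these changes was not tested.

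Leaving out 1 mouse at a time, KO minus WT ran from -17.7 to -3.72 points for the share of clonotypes, -13.3 to 10.2 points for reads, -6.21 to 23.2 points for the largest member, -7.22 to -1.39 nt for length, -0.530 to -0.197 nt for trimming, -0.779 to 2.90 nt for inserted bases, -0.133 to 16.2 points for IGHJ4 and -21.2 to 6.40 points for IGHD1. Members minus others ran from -1.94 to -0.233 nt (length), -0.222 to 0.0140 nt (trimming), 0.505 to 1.76 nt (inserted), -1.44 to 11.7 points (IGHJ4), -12.5 to -0.362 points (IGHD1) and -0.37 to 0.95 (log2 clone size). Called V genes stayed at 0 in all 9 runs.

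Signs turned for reads without WT 1485 (10.2), WT 1536 (0.232), KO 1423 (1.39), KO 1464 (2.54) or KO 1500 (8.77), for IGHD1 in KO minus WT without WT 1485 (6.40) or KO 1421 (3.76), for IGHJ4 without WT 1485 (-0.133), for inserted bases without KO 1464 (-0.779) and for trimming in members minus others without KO 1421 (0.0140). Without KO 1534 they turned for the largest member (-6.21), and, in members minus others, for IGHJ4 (-1.44) and clone size (-0.37). IGHV1-72 ran from -0.25 (without WT 1418) to 0.76, negative also without WT 1432 (-0.17), WT 1536 (-0.08) or KO 1421 (-0.21), and IGHV1-69 from -1.55 to 0.50 (without WT 1432), positive also without KO 1423 (0.06). IGHV1-74 ran from -1.45 to -0.07 and IGHV1-81 from 0.16 (without KO 1423) to 3.63. Without WT 1536, IGHV1-75 had too few clonotypes to be tested.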
